A study of Mus musculus with 4 samples.

Results

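The islet fibroblasts described here are barcodes of mouse pancreatic islet preparations that held transcripts of the fibroblast genes Col3a1, Col1a2, Itm2a and Ptn. A barcode, the droplet tag that stands for a cell, was kept if it reached 500 counts and 250 genes and if mitochondrial transcripts gave no more than 25% of its counts. It was called a fibroblast when the 4 genes together gave at least 5 counts, more than the sum of the pericyte genes Rgs5, Notch3, Abcc9, Pdgfrb and Ndufa4l2 and more than the sum of the contractile genes Acta2, Tagln and Myh11. Barcodes with 5 or more counts of endothelial genes, or with 10% or more of their counts from Ins1, Ins2, Gcg and Sst, were not taken. The rule found 577 of 6566 kept barcodes, or 8.79%. The members were chosen by the counts of the genes just named, and all levels of fibroblasts beside other barcodes are therefore given as a description with no test.

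The study profiled islet cells of mice with inDrop, in which droplets capture single cells and the 3′ ends of their messenger RNAs are tagged and amplified linearly. The genotypes are labelled WT and Sin3A mutant, with 2 libraries each, described by the submitters as biological replicates. Letters replace the last part of the titles, A for _2426 and B for _3165, so that WT A and mutant A carry one number and WT B and mutant B the other. The sources used here do not say what the numbers mean. The tissue of all 4 libraries was pancreatic islets, the cells were primary, and the labels used here name no allele, Cre driver, treatment, age or strain. Runs of 4 values are in the order WT A, WT B, mutant A and mutant B. Levels are CPM, the counts of a gene over the summed counts of all fibroblasts of a library, scaled to a total of 1000000. One count marks the 3′ end of a transcript, so the values were not divided by gene length.

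Fibroblasts are connective tissue cells that secrete and remodel the extracellular matrix. In the pancreas they lie around ducts, vessels and islets, and in development the pancreatic mesenchyme from which they come supplies growth factors to the epithelium. Fibrillar collagens form the tensile fibres of the matrix, small leucine-rich proteoglycans such as decorin bind to these fibres, and pericytes, which share many genes with fibroblasts, sit on capillaries within the basement membrane.

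The libraries held 9282495 to 12835199 counts, and the kept barcodes had median counts between 4442 and 9996.5. Sin3a, the targeted gene and scaffold of a histone deacetylase complex, stood at 14.7, 13.7, 31.9 and 18.7 CPM in fibroblasts, from 7, 8, 4 and 19 counts, and at 28, 45.2, 54.2 and 21.6 CPM in all other kept barcodes. Neither library labelled mutant lay below the libraries labelled WT in fibroblasts. Outside the gate the library labelled mutant A was above both libraries labelled WT, and mutant B was below both. The labels name no allele, so these levels do not test the labels. Every direction below is that of the labels. Scrublet called 40 kept barcodes doublets, 7 of them fibroblasts, all in mutant B. Pairs of libraries shared 12 to 42 barcode sequences, 1 of them among fibroblasts.

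The libraries contributed 82, 125, 16 and 354 fibroblasts, with 474610, 585453, 125400 and 1017086 counts. Their median depth was 5293.5, 3897, 4979 and 2557.5 counts, and the median sum of the 4 gate genes was 85, 76, 15 and 58.5 counts. mutant A thus stood apart in both number and gate sum. At the lower edge, 7 barcodes held exactly 5 gate counts and 14 otherwise eligible barcodes held 4. The gate also took barcodes of other lineages. Of the 577, 95 (16.5%) carried at least 3 counts over a set of 3 Schwann cell genes that includes Sox10, at least 5 over a set of 3 neuronal genes that includes Tubb3 and Elavl4, or at least 10 of the endocrine genes Chga, Chgb, Scg2 and Pcsk1n. They numbered 17, 29, 11 and 38, so that 5 of the 16 barcodes of mutant A were free of them. Over the whole gate, the 9 fibroblast markers, gate genes included, summed to 36181, 34619, 11587 and 44665 CPM. The same markers summed to 8155, 7794, 6565 and 9033 CPM in pericytes, and to 373 to 648 CPM in all kept barcodes outside the gate. The other 482 barcodes still held subclusters rich in pericyte genes, in smooth muscle genes, or in ductal and mesothelial genes, described below. Since 11 of 16 barcodes weigh on every sum of mutant A, values without the barcodes of other lineages follow for the genes that the genotype comparison turns on.

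**Figure D1:**
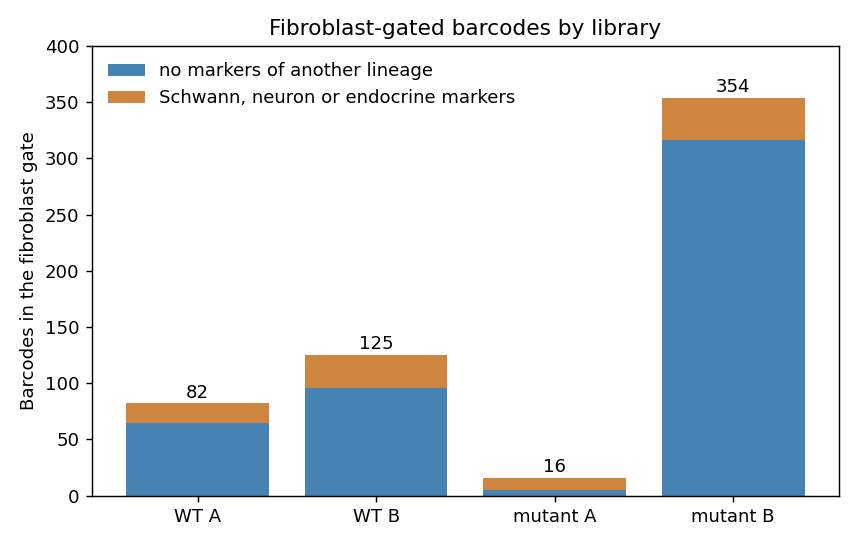
Number of barcodes in the fibroblast gate (vertical axis) in each library, split into those without (blue) and with (orange) markers of Schwann cells, neurons or endocrine cells. The totals were 82, 125, 16 and 354, and 11 of the 16 barcodes of mutant A carried such markers.

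Fibrillar collagens were among the most abundant transcripts of the gated barcodes. Col1a2, the alpha-2 chain of type I collagen (GRCm38, chromosome 6, 4504814 to 4541544, plus strand), stood at 6353, 9039, 1882 and 14094 CPM. Col3a1, the chain of type III collagen (chromosome 1, 45311538 to 45349706, plus strand), stood at 8262, 8183, 2656 and 8286 CPM. Both are gate genes, and both were lowest in mutant A, where the 5 barcodes without other lineage markers gave 6633 and 10046 CPM. Col1a1, the alpha-1 chain of type I collagen and not used by the gate, stood at 7067, 4033, 2018 and 5565 CPM, against 43.3, 42.2, 91.2 and 130.1 in pericytes. Fibroblasts and pericytes did not overlap in this gene, but it was not confined to fibroblasts within the mesenchyme. Col1a1 was detected in 91.2% of 577 fibroblasts, 52.4% of 84 contractile mesenchymal barcodes and 17.0% of 235 pericytes, at unequal depth. The contractile share was 73.3% in WT A, 28.6% in WT B and 53.7% in mutant B. Col1a2 and Col3a1 were also well represented in pericytes, at 1456, 2186, 1216 and 1771 CPM for the first and 1601, 1710.5, 1302 and 1703 CPM for the second. Of the 6 fibrillar collagen genes tested that the gate did not use, 5 were above pericytes in all 4 libraries, beside 17.8% of all 8105 genes, and 6 were when mutant A was left out, beside 25.6%.

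Type VI collagen, a beaded filament collagen, followed with Col6a1 at 1494, 1187, 447 and 1546 CPM and Col6a2 at 1964, 1088, 574 and 1588 CPM. Type IV collagen, the network of basement membranes, was distributed the other way. Col4a1 stood at 1403, 1402, 821 and 1231 CPM in fibroblasts and 3994, 3451, 3439.6 and 3285 CPM in pericytes, and was lower in fibroblasts in each library. Among 14 network and associated collagens tested, 8 were above pericytes in all libraries (17.8% of all genes) and 3 below (12.7% of all genes). Laminins and nidogens gave 2 of 7 above and 2 of 7 below, about 1 gene from these shares.

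Of 12 matrix proteoglycans tested, 4 were above pericytes in all libraries and 3 below, beside 17.8% and 12.7% of all genes. Without mutant A 7 were above, beside 25.6% of all genes. Decorin, Dcn (chromosome 10, 97479609 to 97518143), stood at 1397, 1356, 455 and 2018 CPM in fibroblasts and 14.4, 6.02, 0 and 8.39 CPM in pericytes. Its neighbour Lum, which encodes the related lumican and begins 46985 bases after its end on the plus strand, stood at 552, 372, 87.7 and 375 CPM, and at 7.21, 0, 5.07 and 8.39 CPM in pericytes. Vcan, the large proteoglycan versican, stood at 575, 856, 255 and 889.8 CPM, and at 36.1, 12, 15.2 and 42 CPM in pericytes. No library of pericytes reached any library of fibroblasts in these 3 genes. Contractile barcodes did carry Dcn. It was detected in 39.3% of these 84, against 76.3% of 577 fibroblasts and 1.70% of 235 pericytes, at unequal depth. The contractile share was 86.7% in WT A, 7.14% in WT B and 35.2% in mutant B. Bgn, biglycan, had a similar mean in both classes, 478 and 470.3 CPM, and in fibroblasts was highest in WT A, at 1049, 269.9, 319 and 275 CPM.

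Eln, elastin, stood at 1726, 1187, 279 and 2969 CPM, Mfap4 at 280.2, 377, 191 and 433 CPM and Loxl1, an enzyme that crosslinks elastin, at 594, 403, 255 and 651 CPM. Pericytes held 209, 108, 106 and 105 CPM of Eln, 0, 0, 0 and 4.2 of Mfap4 and 0, 0, 15.2 and 16.8 of Loxl1. Sparc, a collagen-binding glycoprotein, was similarly high in both classes, at 5807, 5488, 3118 and 6875 CPM in fibroblasts and at 5307, 4704, 4362 and 3797 CPM in pericytes. Of 24 matrix glycoproteins tested, 17 were above pericytes in all libraries and 1 was below, beside 17.8% and 12.7% of all genes. Serpinh1, the collagen chaperone, stood at 2301, 1558, 853 and 1630.2 CPM and 2429.8, 1518, 1656 and 1221 CPM in pericytes, and its level overlapped between the classes. Of 23 genes of collagen folding and crosslinking 7 were above pericytes in all libraries (17.8% of all genes) and 2 below (12.7%), and 14 were above without mutant A (25.6%).

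**Figure D2:**
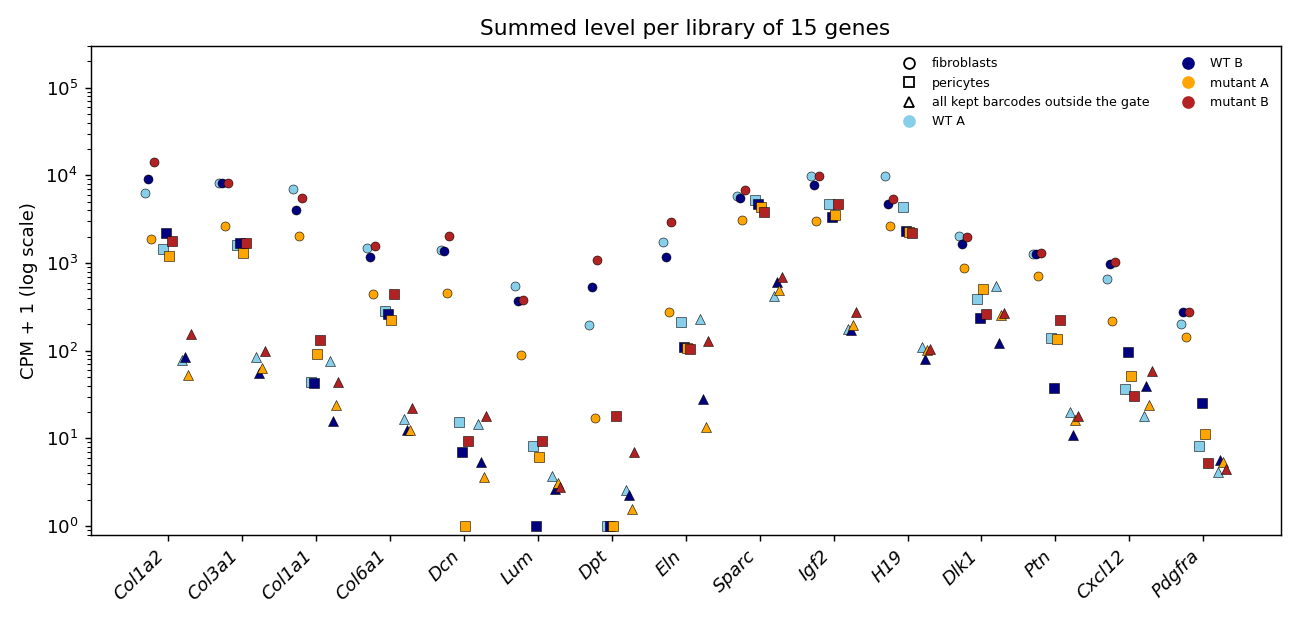
Level of 15 genes (CPM plus 1, log axis) in the summed fibroblasts (circles), pericytes (squares) and all kept barcodes outside the gate (triangles), with 1 point per library. Dcn, Lum and Dpt were at or near 0 in pericytes, whereas Sparc was of similar height in both classes and the fibroblasts of mutant A were low for most genes shown.

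Growth factor transcripts were led by Igf2, insulin-like growth factor 2 (chromosome 7, 142650766 to 142666816, minus strand). It stood at 9810.2, 7673, 3046 and 9958 CPM in fibroblasts and 4672, 3361, 3546 and 4720.1 CPM in pericytes. The 5 barcodes of mutant A without other markers gave 13918 CPM. At a depth thinned to 1500 counts, 85.3% of 536 fibroblasts had an Igf2 count (95% exact binomial interval 82.0 to 88.2%), against 93.1% of 204 pericytes (88.8 to 96.2%) and 4.44% of 2592 hormone-rich barcodes (3.68 to 5.30%), where 41, 31 and 289 shallower barcodes were left out. Without thinning the shares were 86.8%, 95.7% and 14.9%, at median depths of 3021, 2678 and 7313 counts. The intervals cover counting error only. All these shares pool the libraries and take in the barcodes of other lineages. By library the thinned share was 79.7, 77.6, 28.6 and 91.7% in fibroblasts and 93.9, 90.2, 89.7 and 96.3% in pericytes. The 28.6% of mutant A was 4 of 14 barcodes. Exons of Igf2 overlap those of Igf2os on the opposite strand and of a predicted gene on the same strand, and the sources used here do not say how such reads were assigned.

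H19, a noncoding RNA imprinted with Igf2 and 72623 bases from it, stood at 9894, 4665, 2616 and 5385 CPM. It was highest in WT A and lowest in mutant A, and stood at 4326, 2319, 2264 and 2224 CPM in pericytes. Igf2 is expressed mainly from the paternal allele and H19 from the maternal one. Other imprinted growth genes were also frequent. Dlk1, a Notch-like protein of immature mesenchyme, stood at 2018, 1670.5, 877 and 1996 CPM, but was not confined to mesenchyme. Pooled over libraries, Dlk1 was detected in 71.5% of thinned fibroblasts, 25.5% of pericytes and 29.3% of hormone-rich barcodes. The shares by library were 67.1, 67.2, 28.6 and 75.8% in fibroblasts and 27.3, 21.6, 38.5 and 21.0% in pericytes. In hormone-rich barcodes they were 50.9, 10.4, 25.8 and 25.1%. For mutant A, the 28.6% of fibroblasts was 4 of 14 barcodes. Cdkn1c, which encodes an inhibitor of the cell cycle, stood at 1178, 1515, 359 and 1481 CPM. Mest stood at 1839, 840.4, 558 and 675 CPM. Of 21 imprinted growth genes tested, 13 were above pericytes in all libraries and 2 were below, beside 17.8% and 12.7% of all genes. Gnas, abundant in all islet classes, stood at 5544, 6368, 5199 and 7206 CPM against 10029, 11805, 9341 and 11425 in pericytes. The IGF-binding proteins were split between the classes, with Igfbp4 at 1787, 1544, 766 and 2044 CPM against 339, 253, 355 and 411, and Igfbp7 at 851, 690.1, 598 and 615 CPM against 1738, 1409, 1656 and 856.

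Ptn, pleiotrophin, a heparin-binding growth factor and gate gene, stood at 1264, 1283, 702 and 1288 CPM, and Itm2a, a membrane protein that the gate also used, at 1277, 2405, 598 and 2803 CPM. Mdk, the relative of Ptn, stood at 739.6, 499, 215 and 797 CPM. Pooled over libraries, it was detected in 58.8% of thinned fibroblasts against 30.4% of pericytes, 36.0% of contractile barcodes and 1.04% of hormone-rich barcodes. By library the share was 58.2, 54.3, 28.6 and 61.8% in fibroblasts and 48.5, 11.8, 23.1 and 38.3% in pericytes. The 28.6% of mutant A was 4 of 14 barcodes. The chemokine Cxcl12 stood at 653, 977, 215 and 1033 CPM, against 36.1, 96.4, 50.7 and 29.4 in pericytes, and Cxcl1, a neutrophil chemokine, at 659, 618, 95.7 and 961 CPM. Sfrp1, a secreted WNT antagonist, stood at 238, 331, 247 and 601 CPM, against 0, 6.02, 0 and 16.8 in pericytes. Gas1, a hedgehog co-receptor, went the other way, at 1142, 837, 287 and 1199 CPM against 1464, 1626, 1129.6 and 1594 in pericytes.

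Pdgfra, the PDGF receptor used as a fibroblast marker and not part of the gate, was detected in 25.9% of thinned fibroblasts (22.3 to 29.9%). The share was 0.980% of 204 pericytes (0.119 to 3.50%) and 0.540% of hormone-rich barcodes. These shares pool the libraries and the intervals cover counting error only. By library the share was 21.5, 30.2, 14.3 and 26.0% in fibroblasts and 3.03, 0, 0 and 1.23% in pericytes. The 14.3% of mutant A was 2 of 14 barcodes. Thy1, another surface marker of mesenchyme, was not confined to fibroblasts: it stood at 215, 360.4, 112 and 167 CPM against 562, 277, 491 and 478 in pericytes. Dpt, dermatopontin, a gene of the adventitial fibroblast list, stood at 198, 531, 15.9 and 1074 CPM, and at 0, 0, 0 and 16.8 CPM in pericytes. Cd34, a surface protein of the same list, stood at 171, 181, 71.8 and 149 CPM and gave 0 counts in pericytes of each library. A count of 0 in pericytes allows up to 21.6, 18.1, 15.2 and 12.6 CPM. Of the mesenchymal transcription factors, Nfib stood at 501, 586, 199 and 674 CPM and Osr2 at 152, 159, 39.9 and 127 CPM. Tbx3 was higher in pericytes, at 296, 259, 233 and 180.4 CPM against 84.3, 71.7, 15.9 and 55.1.

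Of the 24 matrix glycoproteins tested 24 were above all other kept barcodes in each library, beside 30.5% of all genes, and of 21 imprinted growth genes 13 were. By the ratio of mean CPM to all other kept barcodes, among genes of at least 100 CPM, the leading genes were Dpt at 195, Lum at 169, Dcn at 139, Col1a1 at 119 and Mfap4 at 108. The level of Dpt depended on mutant B, without which its mean in fibroblasts fell from 455 to 248 CPM, while that of Lum was 347 and 337 CPM. The ratios were not computed without mutant B. The first 25 also held genes of glia and nerve, namely Fabp7, Sox10, Foxd3, Vip, Prph, Fxyd7 and Sncg. Fabp7, a fatty acid binding protein of glia, stood at 274, 471, 742 and 163 CPM, and the neuropeptide gene Vip at 181, 145, 702 and 51.1 CPM. Both were highest in mutant A and were at 0 in its 5 barcodes without markers of other lineages.

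Clustering of the 577 barcodes gave 10 subclusters, described by their leading genes. The libraries filled different subclusters. Subcluster 0, with 186 barcodes of which 1, 58, 0 and 127 came from the 4 libraries in order, was led by Col6a6 at 617 CPM and Gas6, the ligand of TAM receptors, at 739 CPM. Subcluster 1, with 91 barcodes of which 82 came from mutant B, held Nov, a matricellular protein, at 410.0 CPM, Igf1 at 886 CPM and Mfap5, a microfibril protein, at 274 CPM. In subclusters 0 and 1 Col3a1 stood at 10314 and 13873 CPM, while Dpt stood at 759.7 and 2522 CPM and Dcn at 1683 and 4881 CPM. Igf2 was in the opposite order, at 13760.5 and 8672 CPM. Libraries WT B and mutant B supplied nearly all of subcluster 0 and mutant B most of subcluster 1, so cell state and library cannot be told apart there.

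Subcluster 3, with 58 barcodes, was led by the mitotic genes Top2a, at 1050.3 CPM, and Birc5, and had Col3a1 at 7926 CPM and Igf2 at 9969.5 CPM. Subcluster 4 took 40 of its 47 barcodes from WT A and combined Igf2 at 17095 CPM and H19 at 16489.8 CPM with Bgn at 1501 CPM. It also held the hemoglobin transcript Hbb-bs at 4358 CPM, and the part of free erythroid RNA in it was not tested. Subcluster 5, with 41 barcodes, held the pericyte gene Rgs5 at 3502 CPM, and its 7 pericyte markers summed to 6610 CPM against 845 CPM in the rest of the gate. Subcluster 7, with 27, held the smooth muscle gene Myh11 at 1131 CPM and Eln at 14363 CPM, and its 6 smooth muscle markers summed to 8567 against 1328 CPM. Subcluster 6, with 28, was led by Spp1, osteopontin, at 1529 CPM and Clu, clusterin, at 608 CPM, and also held Wt1 at 500.3 CPM and the keratin Krt8 at 461 CPM. Its 6 ductal markers summed to 2342 against 58.2 CPM, and its 6 mesothelial markers, Wt1 included, to 597 against 26.2 CPM. Its fibroblast markers summed to 43272 CPM, and it was left without a name. Of these 3 subclusters, 0, 1 and 2 barcodes, in the order 5, 7 and 6, carried the Schwann, neuronal or endocrine markers above.

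The remaining 3 subclusters had little decorin. Subcluster 2, with 61 barcodes, held the glial genes Fabp7 at 3182 CPM and Sox10 at 1319 CPM, Col3a1 at 2969 CPM, and Igf2 at 156 CPM. Subcluster 8, with 24, held Gcg at 34083 CPM and the granin Chgb at 2388 CPM. Subcluster 9, with 14, held the neuronal tubulin Tubb3 at 2500.3 CPM and Vip at 1811 CPM, with Col3a1 at 117 CPM. Dcn was 31.1, 98.6 and 11.7 CPM in these 3, against 4881 CPM in subcluster 1.

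**Figure D3:**
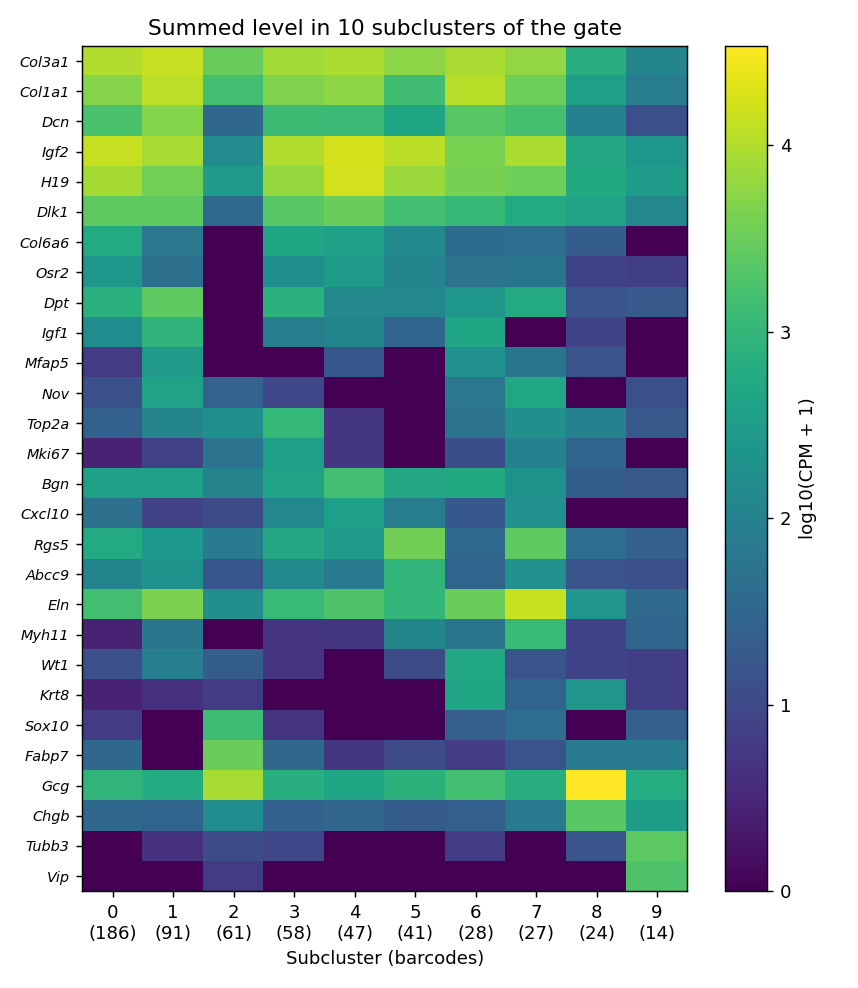
Level of 28 genes (rows, log10 of CPM plus 1) in the 10 subclusters of gated barcodes (columns, with the number of barcodes). Dcn and Igf2 were lower in subclusters 2, 8 and 9, which held glial, endocrine and neuronal genes, than in the other 7.

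Cycling barcodes, with at least 2 counts over 8 proliferation genes after thinning to 1500 counts, made up 17.5% of fibroblasts (14.4 to 21.0%), 17.2% of pericytes (12.3 to 23.0%) and 12.5% of hormone-rich barcodes. These shares pool the libraries and their intervals cover counting error only. By library the share was 13.9, 13.8, 21.4 and 19.6% in fibroblasts and 18.2, 11.8, 5.13 and 25.9% in pericytes. Fibroblasts were thus higher in WT B and mutant A and lower in the others, from few barcodes. The cycling ones were 16 of 116 fibroblasts and 6 of 51 pericytes in WT B, and 3 of 14 and 2 of 39 in mutant A. Of the 16 gated barcodes of mutant A before thinning, 11 carried markers of other lineages. The cycling share without such barcodes was not computed.

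The study's design compares genotypes. Fibroblasts made up 6.72% and 6.94% of kept barcodes in the libraries labelled WT, and 1.39% and 14.8% in those labelled mutant. The libraries labelled mutant lay on both sides of the WT pair, with means of 8.08 ± 9.45% and 6.83 ± 0.158% (SD, n = 2), and the difference of 1.24 percentage points gave p = 1 (exact permutation test, two-sided, smallest possible p = 0.333). It was 7.92 points without mutant A and turned to -5.44 points without mutant B. With barcodes of other lineages left out, the shares were 5.33% in WT A, 5.33% in WT B, 0.436% in mutant A and 13.2% in mutant B. Shares of captured barcodes follow dissociation and capture as well as tissue content, and these cannot be told apart here.

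No gene passed the genotype comparison in fibroblasts. Of 8105 genes tested by edgeR's quasi-likelihood test on summed counts, 0 were higher (0% of genes) and 0 were lower (0%) at an adjusted p under 0.05, with 12 and 8 at an unadjusted p under 0.05. DESeq2 also called 0 and 0, with 5 and 2 at an unadjusted p under 0.05. The libraries of the 2 labels did not overlap for 604 genes higher (7.45%) and 937 genes lower (11.6%). Among the matrix lists these were 0 of 8 fibrillar collagens in either direction, and 0 of 6 without the gate genes. They were 0 of 24 matrix glycoproteins in either direction. Of 23 genes of collagen folding and crosslinking, 0 were higher and 4 lower. The median log2 difference was -0.25 for fibrillar collagens, -0.05 for matrix glycoproteins and 0.02 for imprinted growth genes, beside -0.01 over all genes tested.

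Abundant matrix and growth genes had wide errors. The log2 difference of libraries labelled mutant minus WT was -0.55 ± 0.73 (SE) for Col3a1, a gate gene whose level the rule shaped. It was -0.51 ± 0.72 for Col1a1, -0.38 ± 0.74 for Igf2 and -0.09 ± 0.76 for Dcn, which the gate did not use. In each of these genes, Col3a1 included, mutant A was below and mutant B within or above the range of the WT libraries. This place of mutant A moved with its barcodes of other lineages. Without these barcodes Col3a1 stood at 10564, 11025, 10046 and 9077 CPM, Col1a1 at 8917, 5518, 8934 and 6139.7, Igf2 at 13419, 10689, 13918 and 11131 and Dcn at 1876, 1885, 2186 and 2276, and mutant A was no longer below both WT libraries in Col1a1, Igf2 or Dcn. Lum then stood at 741, 519, 422 and 422 CPM, Eln at 2344, 1640.3, 1150.3 and 3311, H19 at 13442, 6475, 12039 and 5937 and Dlk1 at 2693, 2321, 3758 and 2207. H19 had a difference of -0.84 ± 0.71 and Bgn, the proteoglycan highest in WT A, of -1.16 ± 0.71.

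The genes of smallest p were low in counts. Cldn11, a tight junction protein, stood at 6.32, 8.54, 95.7 and 19.7 CPM, with a log2 difference of 2.63 ± 0.97 (edgeR, unadjusted p = 0.0242). Stmn4, a neuronal stathmin, stood at 65.3, 80.3, 7.97 and 13.8 CPM, with -2.50 ± 0.66 (edgeR, unadjusted p = 0.00438). For both the libraries of the 2 labels did not overlap, and the adjusted p was 1. The others of smallest p were Ctrb1, a digestive enzyme of acinar cells, Poc1b, Dnajc13 and Pcsk6 on the higher side. On the lower side were Rnf34, Sepn1, Snhg12 and the pericyte gene Ndufa4l2. Ndufa4l2 belongs to the pericyte sum that the gate kept below the sum of the fibroblast genes, so the rule limited its level. Cldn11, Ctrb1, Pcsk6, Stmn4 and Rnf34 were at 0 in the 5 barcodes of mutant A without other lineage markers, which held 26081 counts in all, so that a count of 0 allows up to 115 CPM there.

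**Figure D4:**
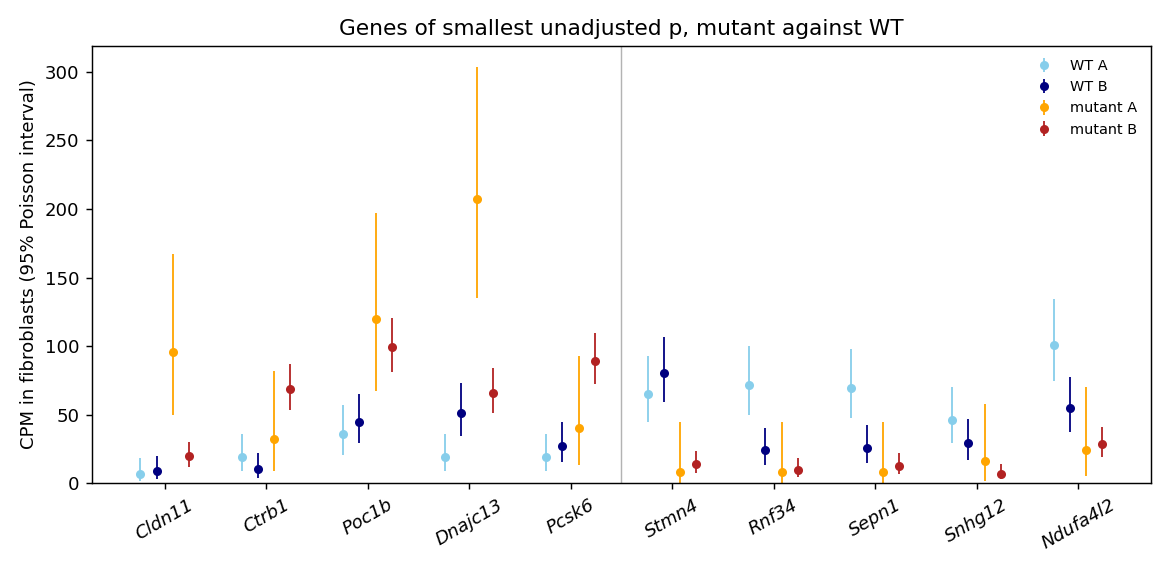
Level (CPM in summed fibroblasts) of the 10 genes of smallest unadjusted p, 5 higher and 5 lower in the libraries labelled mutant, with 1 point per library and 95% Poisson intervals, which cover counting error only. The library labelled mutant A had the widest intervals, and no gene passed after adjustment.

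The count of called genes depended on the libraries labelled mutant. Without mutant A, 2 genes, Nov and Myh11, were higher and 12 lower, and without mutant B, 80 were higher and 90 lower, each leaving 1 library labelled mutant whose spread was taken from the WT pair. The 12 lower genes without mutant A included the neuronal genes Tubb3, Syn2, Syp and Rtn1, and summed neuron markers were 436, 618, 1659 and 101 CPM in the 4 libraries. With barcodes of other lineages also left out, 2 genes were higher and 0 lower. These were Nov, at 21.1, 27.3, 7.97 and 152 CPM in the full gate, and Stmn2, a neuronal stathmin, at 0, 11.9, 0 and 105 CPM without other lineages. In the full gate Stmn2 stood at 373, 564, 1100.5 and 178 CPM, with mutant B lowest, so its direction turned with those barcodes. Nov was a leading gene of subcluster 1, drawn mostly from mutant B, and the part of that subcluster in its difference was not tested. Myh11 belongs to the contractile sum that the gate kept below the sum of the fibroblast genes, so the rule limited its level.

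The genotype difference of fibroblasts was set against that of pericytes in the same libraries. Of 5644 genes tested by edgeR's interaction term, 0 (0%) passed an adjusted p under 0.05, with 21 and 73 at an unadjusted p under 0.05 in the 2 directions. With a replicate block on the title number 1 and 9 genes passed, the 9 including the hemoglobin genes Hba-a1, Hba-a2, Hbb-bs and Hbb-bt and the carriers Rbp4 and Ttr, and without the filter on low counts 0 and 6 passed. Leaving out 1 library gave up to 7 and 39 (without mutant A), 0 and 7 (without WT B), and 5 and 38 (without mutant B). With barcodes of other lineages left out, the hemoglobin gene Hbb-bt passed as lower. Summed erythroid markers were 3040, 53.0, 31.9 and 883 CPM in fibroblasts and 43.3, 120, 27892 and 3138 CPM in pericytes, and their part in the hemoglobin calls was not tested.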

How the data were processed

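Counts per gene and barcode were used as the authors deposited them, whole numbers that were not normalized, in 4 inDrop libraries. Builds listed in the submitters' processing notes are GRCm38 and GRCh38. For the aligner, the annotation and the treatment of molecular tags, the sources used here state nothing. Of 38459 features, 38457 were mouse genes, and the other 2 were left out. Gene positions are from GENCODE annotation of GRCm38.

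The members and all gene lists were chosen with earlier results of these data known. Named genes were Sin3a, the gate genes, Igf2, the 5 of smallest unadjusted p per direction, the 25 of highest ratio to other barcodes, and in each of 26 lists the 4 of highest mean CPM and the 2 of smallest p, not all printed; predicted genes were passed over. Subcluster genes, the 3 marker sets of other lineages and genes called with a library left out were named after their values were seen. A few genes that the rule or the marker sets took are not reported here.

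Counts were summed per library and class and tested with edgeR 4.0.16 (TMM factors, quasi-likelihood, Benjamini-Hochberg adjustment), with DESeq2 1.42.0 as an alternative, and scripts were tested on simulated data. The SE is the absolute log2 difference divided by the square root of F. P-values measure the spread between 2 libraries per label. Scrublet and Leiden clustering (resolution 0.8, 20 components, 15 neighbours) were run in scanpy 1.11.5. Scrublet doublets (0.609% of kept barcodes) stayed in and were removed as an alternative.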

Additional observations from a re-analysis of the deposited data

How the results depend on the processing

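The counts of genes higher and lower in fibroblasts of libraries labelled mutant stayed at 0 and 0 with DESeq2, without TMM factors, without the filter on low counts, at a gate of 10 counts, at 10% mitochondrial counts, at 2% hormone transcripts, without Scrublet doublets, without other lineages and with a replicate block on the title number. With 1 library left out they ranged from 0 to 80 higher and from 0 to 90 lower. With other lineages and mutant A both left out, a choice made after seeing the data, 2 were higher and 0 lower. The count of genes whose genotype difference differed between fibroblasts and pericytes was 0 and 6 without the filter, 1 and 9 with the replicate block, and 0 and 1 without other lineages. With 1 library left out it ranged from 0 to 7 higher and from 0 to 39 lower. The cause was not tested. Samples of the same title number deviated together with r = 0.274 over 8105 genes (genes are no independent replicates), and the labels state no pairing, so the number was not taken as a pair.

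The difference in share turned to -3.06 percentage points over kept barcodes with under 10% hormone transcripts, and to -16.3 points over mesenchymal barcodes. With 1 library left out it ranged from -5.44 to 7.92 points. Of 144 alternative mean levels of 16 genes, 10 moved by more than the SD between libraries, 9 of them when other lineages were left out. Depth limits mutant A most, with 125400 fibroblast counts.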
